A study of Mus musculus with 4 samples.

Results

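Rnf121, Col4a3, Hist3h2a, Cd52, Hcls1 and Dnah7b are 6 of the 20094 genes measured in single retinal cells of light-damaged mice. They were chosen by their summed counts in rods, which were higher in the library from mice given BC11-38 than in the library from mice given rolipram, so their difference in rods between these 2 libraries is a description of the choice and supports nothing. The question put to them is whether the higher level of the BC11-38 library was present in every cell type or in rods alone. In short, Rnf121 was higher in the BC11-38 library in nearly every kind of retinal cell, with the highest levels in rods and Müller glia. Outside rods, and among classes with at least 20 UMIs, the other 5 genes were at least 2-fold higher only in bipolar cells for Cd52 and in Müller glia for Hcls1, both from few UMIs.

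All groups were Abca4-/-Rdh8-/- mice of the C57BL/6J strain at an age of 6 weeks. These mice lack the ABCA4 transporter and the RDH8 dehydrogenase, which clear all-trans-retinal from photoreceptors, so bright light damages their photoreceptors. The unbleached vehicle group was given DMSO and no bleaching light. The bleached vehicle group was given DMSO and white light of 10000 lux for 30 min. The labels describe bleaching as following 24 h of dark adaptation and pupil dilation with 1% tropicamide, and do not say whether unbleached mice had either. The remaining groups received the same light 30 min after an intraperitoneal dose of 2 mg/kg in DMSO. In 1 group the drug was rolipram, which inhibits phosphodiesterase 4, and in the other it was BC11-38, which inhibits phosphodiesterase 11. Bleached retinae were collected 1 day after light. Each group was 1 library of 4 retinae pooled from 2 mice, so there is no replicate, no test across samples was possible, and drug, mice and library preparation cannot be told apart. Another group named by the series was not analysed here.

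The libraries held 5697 to 7894 cells and 28983626 to 44386442 UMIs (unique molecular identifiers, each counting 1 captured transcript), and 92 of 26451 distinct cell barcodes occurred in at least 2 libraries. Levels are CPM, the UMIs of a gene per 1000000 UMIs of the same cell class and library. Each ratio is a ratio of CPM with an exact 95% interval that covers counting error only. A difference is called here at 2-fold, with no p-value. Cells were clustered without the 6 genes, and the clusters were named from marker genes. Rods are thus rod-like cells from clusters in which all 12 rod markers were detected. Some other clusters were named from part of their markers, such as 4 of 12 in amacrine clusters 21 and 32. Every set of 4 values below gives unbleached vehicle first, then bleached vehicle, then rolipram and last BC11-38. The libraries held 2378, 2502, 2637 and 2300 rods. Clusters 1 and 12 held 2018 of 2637 rolipram rods and 2278 of 2300 BC11-38 rods, whereas clusters 0 and 2 held most rods of the bleached vehicle library. Müller glia fell mainly into cluster 23 in both drug libraries and into cluster 10 in the bleached vehicle library, while those of the unbleached vehicle library were spread over both and cluster 11. Cluster 26 had amacrine markers but was led by lens crystallins, stayed unnamed, and is called the lens-led cluster.

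The 6 genes belong to no common pathway. Rods are the photoreceptors of dim light of the retina, and their nuclei pack chromatin unusually tightly. Rnf121 encodes a RING-finger ubiquitin ligase of the endoplasmic reticulum and Golgi membranes. Col4a3 encodes the alpha 3 chain of type IV collagen, a basement membrane protein, and Hist3h2a a core histone H2A. Cd52 encodes a small surface glycoprotein of leukocytes, Hcls1 an actin-binding signalling protein of blood cells, and Dnah7b a heavy chain of axonemal dynein, the motor of motile cilia.

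In rods, Rnf121 stood at 33.7, 32.1, 24.7 and 199.6 CPM, and the BC11-38 library was 8.08-fold over rolipram (6.51 to 10.1). Col4a3 stood at 6.88, 4.11, 15.7 and 59.0 CPM, 3.77-fold over rolipram (2.81 to 5.12). The BC11-38 value was the highest of the 4 for both genes, as it was for 17.9% of all genes counted in rods. Hist3h2a stood at 106, 57.8, 98.7 and 274 CPM, 2.77-fold over rolipram (2.46 to 3.13). Cd52 stood at 16.4, 12.8, 17.3 and 48.3 CPM, 2.80-fold over rolipram (2.10 to 3.78). These 2 genes also had their highest value in the BC11-38 rods, and Hist3h2a its lowest in the bleached vehicle rods. Hcls1 stood at 23.2, 12.6, 27.6 and 48.0 CPM, 1.74-fold over rolipram (1.36 to 2.24). Dnah7b stood at 38.0, 29.3, 29.7 and 73.3 CPM, 2.47-fold over rolipram (1.97 to 3.10). Hcls1 was thus the member nearest to no difference and the only 1 of the 6 under 2-fold in the contrast that chose them. Over all genes with at least 100 UMIs, 29 of 8141 were at least 2-fold higher in BC11-38 than in rolipram rods, which is 0.356%, and 58, or 0.712%, were that much lower. By ratio, from the highest, Rnf121 ranked 9, Col4a3 12, Cd52 16, Hist3h2a 17, Dnah7b 20 and Hcls1 44. The genes ranked 1 to 8 were all lens crystallins.

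**Figure D1:**
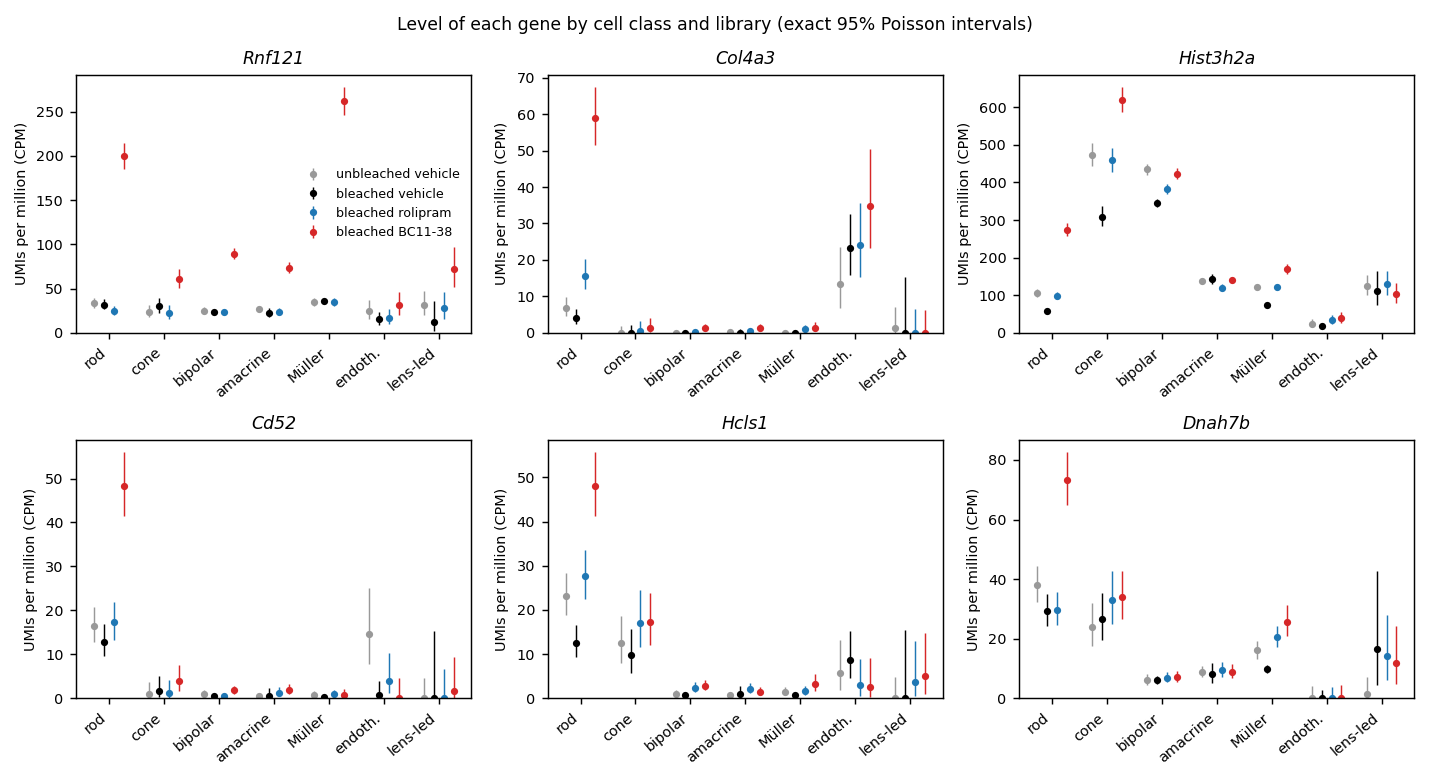
Level of each of the 6 genes (y axis, CPM, linear from 0) in 7 cell classes (x axis) in the 4 libraries (colours), with exact 95% Poisson intervals as bars. The red BC11-38 point stands above the other 3 in rods in each panel, while in the Rnf121 panel it also stands above them in the other classes, from 31.1 CPM in endothelial cells to 262 CPM in Müller glia.

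The same rods were also set against the vehicle libraries. These comparisons share the BC11-38 library with the choice of the genes, so they are given side by side and not as further support. Over bleached vehicle rods, the BC11-38 rods were 6.22-fold higher for Rnf121 (5.14 to 7.58), 14.4-fold for Col4a3 (8.65 to 25.6), 4.74-fold for Hist3h2a (4.09 to 5.50), 3.76-fold for Cd52 (2.73 to 5.26), 3.82-fold for Hcls1 (2.77 to 5.35) and 2.50-fold for Dnah7b (2.00 to 3.15). All 6 passed 2-fold there, where 1.06% of all genes did. Over unbleached rods the ratios were 5.93 for Rnf121, 8.58 for Col4a3, 2.59 for Hist3h2a, 2.95 for Cd52, 2.07 for Hcls1 and 1.93 for Dnah7b. That is 5 of 6 past 2-fold, where 0.543% of all genes were. Rnf121, Col4a3, Hist3h2a and Cd52 were at least 2-fold above each of the other 3 libraries, as were 24 of 9762 genes, or 0.246%.

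Rolipram rods themselves did not hold the lowest value of every gene. Col4a3 was 3.81-fold higher in rolipram than in bleached vehicle rods (2.16 to 7.10) and 2.28-fold higher than in unbleached rods (1.44 to 3.68), where 0.607% of all genes passed 2-fold and the other 5 members did not. Hcls1 was 2.19-fold higher in rolipram than in bleached vehicle rods (1.55 to 3.15), and Hist3h2a 1.71-fold (1.44 to 2.03). These 2 of 6 genes past 2-fold, Col4a3 and Hcls1, stand beside 0.434% of all genes in the comparison of rolipram with bleached vehicle rods. Rnf121 showed the other order, at 0.77-fold in rolipram relative to bleached vehicle rods (0.58 to 1.01).

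The share of rods with at least 1 UMI followed the levels. Every rod was thinned to 1500 UMIs for this, which left out shallower rods and kept 1182, 1040, 787 and 1031 rods in library order. Rnf121 was then seen in 4.83%, 4.77%, 2.75% and 21.6% of rods, against 5.42%, 4.84%, 3.38% and 25.0% of all rods before thinning. Up to 5 Rnf121 UMIs were seen in a BC11-38 rod, and 27 of 2300 such rods had 3 or more. Hist3h2a was seen in 12.6%, 8.03%, 11.5% and 30.5% of thinned rods, and Col4a3 in 1.04%, 0.501%, 1.66% and 7.69%. Cd52 was seen in 2.34%, 1.68%, 2.04% and 5.74%, Hcls1 in 2.53%, 1.59%, 3.71% and 5.55%, and Dnah7b in 4.04%, 3.94%, 4.09% and 8.67%. For each gene the BC11-38 share was the highest of the 4.

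Rnf121 was the gene with the widest difference across cell classes. Müller glia, the radial glia of the retina, held 34.9, 36.0, 35.1 and 262 CPM, which is 7.45-fold higher in BC11-38 than in rolipram (6.48 to 8.60). Bipolar cells, the interneurons after photoreceptors, held 24.9, 23.2, 23.3 and 89.1 CPM, a ratio of 3.82 (3.28 to 4.47). Amacrine cells, inhibitory interneurons, held 26.6, 22.5, 24.2 and 73.6 CPM, a ratio of 3.04 (2.54 to 3.67). In all of these classes the first 3 libraries lay close together and the BC11-38 library alone was high. Cones, the photoreceptors of bright light, held 23.9, 30.0, 22.8 and 60.6 CPM, a ratio of 2.66 (1.85 to 3.89). The lens-led cluster held 32.0, 12.5, 28.5 and 72.1 CPM, a ratio of 2.53 (1.39 to 4.81). Endothelial cells of blood vessels held 24.7, 15.2, 17.0 and 31.1 CPM from 17 to 25 UMIs, a ratio of 1.83 with an interval (0.95 to 3.61) that includes no difference.

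Rnf121 was therefore at least 2-fold higher than in rolipram in 6 of 7 classes, rods included, and endothelial cells were the exception. The background, the share of all genes at least 2-fold higher in BC11-38, was 0.596% in Müller glia, 0.163% in bipolar cells, 0.147% in amacrine cells, 0.0743% in cones, 1.27% in endothelial cells and 0.767% in the lens-led cluster. For a comparison with all genes the minimum was 100 UMIs in a class. Rnf121 reached it in 5 classes, rods included, and not in endothelial cells or the lens-led cluster. Since Rnf121 was chosen in rods, its place in the counts that follow partly restates the choice. Of 7555 genes with that many in at least 4 classes, 2 (0.0265%) were at least 2-fold higher than in rolipram in each such class, Rnf121 and Gm8797. Gm8797 stood at 256, 265, 54.9 and 128 CPM in rods, so there the rolipram library was low and the BC11-38 library lay below both vehicle libraries. At the same minimum, and again over 5 classes for Rnf121, it was the 1 such gene among 7672 against unbleached vehicle (0.013%). Against bleached vehicle it was 1 of 5 among 7806 (0.0641%), beside Xist, Tsix, Opn1sw and Opn1mw.

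**Figure D2:**
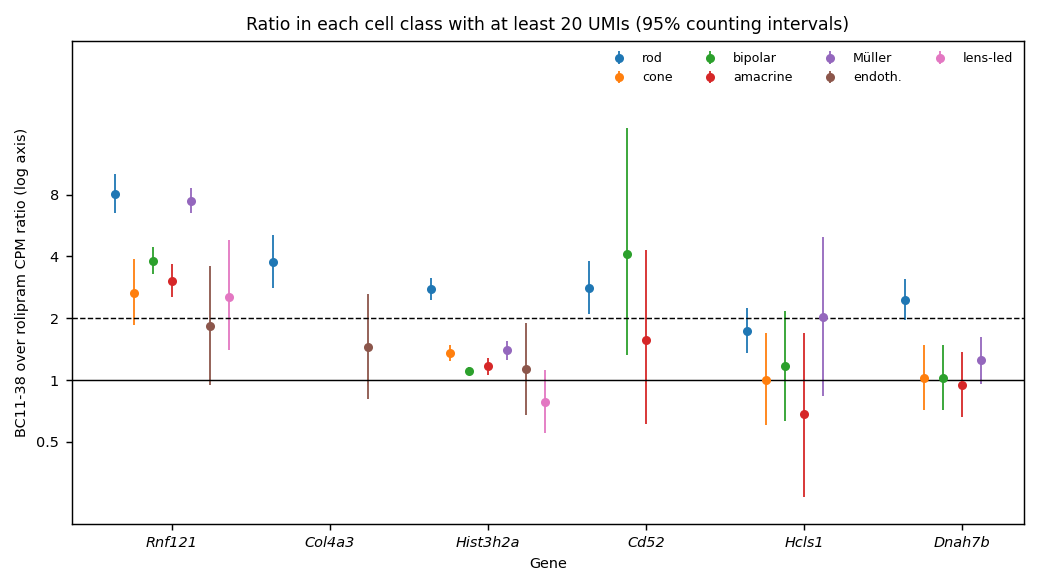
Ratio of BC11-38 to rolipram CPM (y axis, log scale) for each gene (x axis) in each cell class with at least 20 UMIs over both libraries (colours), with 95% counting intervals, a solid line at 1 and a dashed line at 2. Rnf121 has 6 of 7 points above the dashed line, whereas Hist3h2a and Dnah7b have only their rod point above it.

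The size of the Rnf121 difference was unequal among classes. Outside rods, the interval in Müller glia (6.48 to 8.60) lay wholly above those in bipolar cells, amacrine cells and cones. Of 26 clusters with at least 20 UMIs over both drug libraries, 20 were at least 2-fold higher, 25 lay above 1, and the median ratio was 3.19, within a range of 0.92 to 8.88. These counts include rod clusters 1 and 12, at 8.43 and 8.88, where the difference is part of the choice of the gene. Outside rods the highest ratio was 8.06 in bipolar cluster 29, from 36 against 3 UMIs (2.55 to 40.9). The cluster under 1 was amacrine cluster 8, led by Lamp5 and the glycine transporter Slc6a9, at 28.8 CPM in BC11-38 and 31.4 CPM in rolipram (interval of the ratio 0.41 to 2.00). Horizontal cells, at 32.2 against 25.9 CPM, had a ratio of 1.25 (0.65 to 2.41), and ganglion cells, at 46.4 against 23.5 CPM, 1.98 (1.00 to 4.19). Amacrine clusters 18 and 33, at 1.32 and 1.83, also had intervals that include no difference. These lower clusters rest on 12 to 34 UMIs in each library.

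**Figure D3:**
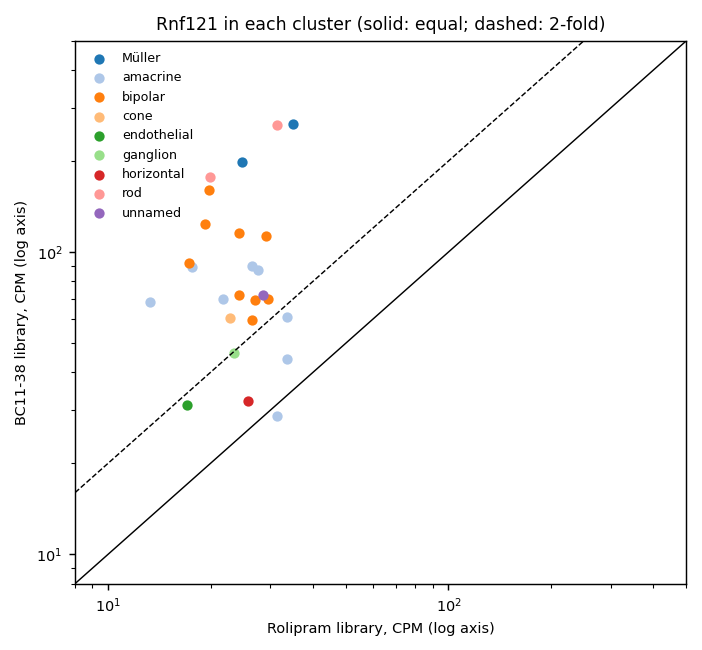
Rnf121 level in the BC11-38 library (y axis, CPM, log scale) against the rolipram library (x axis, CPM, log scale) for 26 clusters, coloured by cell class, with a solid line of equality and a dashed 2-fold line. Rolipram levels lie between 13.2 and 35.0 CPM in all clusters, and BC11-38 levels spread from 28.8 to 264 CPM.

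Rnf121 lies on the minus strand of chromosome 7, at 102019137 to 102065469 (GRCm38, GENCODE M21), and Xndc1 starts on the opposite strand just upstream of it. The stretch between its annotated alternative first exons is shown because it lies upstream of the shorter transcripts of the gene that differed in nearly every class. It is taken from RefSeq's promoter table (GRCm38.p6), chr7:102065159-102065266, minus strand, with capitals marking CCAAT read on the opposite strand.
Rnf121: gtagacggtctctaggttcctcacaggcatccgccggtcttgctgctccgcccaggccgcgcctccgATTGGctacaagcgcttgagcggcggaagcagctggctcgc
CCAAT on either strand occurs in 37.4% of 32544 promoter windows of 300 bases, so the match is a common one. Neither TAATCC, the core recognised by the photoreceptor factor CRX, nor TGACGTCA, the full cyclic AMP response element, is present on either strand in the whole window of Rnf121, and these occur in 7.06% and 1.80% of promoter windows.

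The neighbours of Rnf121 did not share its level. Xndc1 stood at 24.4, 16.9, 19.1 and 19.5 CPM in rods, a BC11-38 over rolipram ratio of 1.02 (0.72 to 1.44), and its ratio was 1.44 in Müller glia and 0.92 in bipolar cells. Il18bp, on the other side, encodes a binding protein of interleukin 18 and had a ratio of 1.19 in rods (0.53 to 2.73). Within 2 Mb to either side of Rnf121, 0 of 19 counted genes were at least 2-fold higher or lower in rods, 0 of 25 in Müller glia, 0 of 24 in bipolar cells, 0 of 24 in amacrine cells and 0 of 16 in cones. Of 13 other genes of endoplasmic reticulum ubiquitin ligases and protein degradation, 0 were 2-fold higher and 0 lower in rods, with a median log2 ratio of -0.10 against -0.05 for all genes. Genes of such lists were counted from 20 UMIs, and all genes from 100. The same 13 gave 0 in both directions in Müller glia, bipolar cells, amacrine cells and cones. In endothelial cells Rnf145 was at least 2-fold lower, at 12.5 against 27.0 CPM from 10 and 27 UMIs, and in the lens-led cluster Syvn1 was at least 2-fold higher, at 40.3 against 17.8 CPM from 24 and 10 UMIs.

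Col4a3 was found almost only in rods and in the cells of vessels and pigment epithelium. Rods gave 215 of its 305 UMIs in the BC11-38 library, or 70.5%. Endothelial cells, which lie on basement membrane, held 13.5, 23.2, 24.0 and 34.9 CPM, a ratio of 1.45 over rolipram (0.81 to 2.62). Their intervals overlap, and no difference from rolipram was detectable at this depth. The highest levels were in pigment epithelium, with 411, 141, 340 and 811 CPM, but these rest on 4 to 14 UMIs from 2 to 7 cells. In bipolar cells 0, 1, 2 and 12 UMIs were seen, in amacrine cells 2, 0, 3 and 9, and in Müller glia 0, 2, 7 and 5.

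Col4a3 runs on the plus strand of chromosome 1 from 82586921 to 82722059, head to head with Col4a4, which encodes the alpha 4 chain of the same collagen network. The 71 bases between the starts of both genes are shown because both were higher in the BC11-38 rods, from RefSeq's window of Col4a4 (GRCm38.p6), chr1:82586850-82586920, plus strand, in lower case since no searched motif lies in them.
Col4a3 and Col4a4: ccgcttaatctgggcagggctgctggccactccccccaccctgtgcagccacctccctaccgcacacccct
Col4a4 stood at 6.40, 7.70, 9.02 and 24.4 CPM in rods, a ratio of 2.71 over rolipram (1.80 to 4.15). In bipolar cells 17 Col4a4 UMIs in rolipram stood against 3 in BC11-38, a ratio of 0.18 (0.034 to 0.63). Müller glia had the same UMI numbers, a ratio of 0.30 with an interval (0.057 to 1.05) that includes no difference. Mff, on the far side of Col4a3, had a ratio of 1.05 in rods. C430014B12Rik, which overlaps Col4a3 on the other strand, stood at 1.19, 2.05, 2.92 and 5.76 CPM in rods, and whether the counting separated the strands is not given in the sources used here. Of 3 counted genes among 14 other collagen IV and basement membrane genes, Col4a4 was at least 2-fold higher in rods and Col4a1 at least 2-fold lower, at 21.1, 55.7, 11.4 and 1.37 CPM. In the lens-led cluster Lama1 was the only one counted, and was at least 2-fold higher, at a log2 ratio of 1.64.

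Hist3h2a was under 2-fold over rolipram in each of the 6 classes other than rods. Cones held more than bipolar cells except in the bleached vehicle library, with 474, 309, 459 and 620 CPM, a ratio of 1.35 over rolipram (1.24 to 1.48). Bipolar cells held 434, 345, 382 and 423 CPM, a ratio of 1.11 (1.06 to 1.16), and Müller glia 122, 74.8, 121 and 169 CPM, a ratio of 1.39 (1.26 to 1.54). Amacrine cells held 138, 143, 120 and 140 CPM, a ratio of 1.16 (1.06 to 1.28). These 4 ratios lie above 1 beyond counting error, by less than 2-fold. Among single clusters outside rods, Müller cluster 11 passed 2-fold, at 262 against 128 CPM, a ratio of 2.04 (1.16 to 3.58). Bipolar cells were not uniform, with 0.80 (0.69 to 0.92) in bipolar cluster 5 and 1.44 (1.26 to 1.66) in bipolar cluster 24. In female bipolar cells, those with Xist but no Y-linked UMIs, the ratio was 0.97, with no interval of its own. In rods, Müller glia, cones and bipolar cells the bleached vehicle library was the lowest of the 4, at 0.55, 0.62, 0.65 and 0.79 of the unbleached level, and in amacrine cells it was the highest.

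Hist3h2a lies on the plus strand of chromosome 11, at 58954685 to 58956830, and shares its annotated start with Trim17, a ubiquitin ligase gene. Its upstream sequence is shown because it holds the elements typical of histone gene promoters, chr11:58954513-58954684, plus strand, from RefSeq's window of H2aw, the present symbol (GRCm38.p6). Capitals mark the octamer ATGCAAAT, CCAAT on each strand, and the TATA box TATATAA, and none of these overlap.
Hist3h2a: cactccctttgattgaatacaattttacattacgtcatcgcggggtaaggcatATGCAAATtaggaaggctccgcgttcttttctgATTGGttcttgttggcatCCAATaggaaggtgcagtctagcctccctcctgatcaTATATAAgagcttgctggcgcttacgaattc
ATGCAAAT occurs in 1.75% and TATATAA in 3.22% of promoter windows of 300 bases on either strand. Trim17 had a ratio of 1.70 in rods (1.07 to 2.75), and reads over the stretch it shares with Hist3h2a could belong to either gene. Hist3h2ba, the adjacent H2B gene, had a ratio of 1.18 in rods (0.98 to 1.44). Of 16 other polyadenylated histone genes, 0 were 2-fold higher and 0 lower in rods, with a median log2 ratio of 0.02.

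Cd52 is a gene of microglia and other leukocytes, and these held most of its UMIs in 3 libraries. Microglia held 3232, 2287 and 1295 CPM in the unbleached, bleached vehicle and rolipram libraries, and gave 83.4%, 94.0% and 75.9% of the library's Cd52 UMIs. The BC11-38 library had no cell named microglia, and its C1qa total was 2 UMIs. Rods gave 79.6% of Cd52 UMIs there. Over all cells Cd52 was accordingly lowest in the BC11-38 library, at 17.3, 25.4, 11.7 and 7.62 CPM, the reverse of its order in rods.

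The BC11-38 rods, highest in Cd52, were not the highest in microglial markers summed over all rods of a library. Single rods were not split by Cd52. The 13 markers summed to 11.9, 14.4, 14.1 and 12.4 CPM in rods, and 7 of the 13 were at 0 in BC11-38 rods, namely C1qa, Cx3cr1, P2ry12, Tmem119, Csf1r, Tyrobp and Aif1. Outside rods Cd52 was sparse. Bipolar cells held 0.93, 0.44, 0.43 and 1.78 CPM, a ratio of 4.11 from 16 against 4 UMIs (1.33 to 16.9), and amacrine cells a ratio of 1.56 (0.61 to 4.29). Endothelial cells had 13, 1, 4 and 0 UMIs. Cd52 lies on the minus strand of chromosome 4, at 134082448 to 134095082, and overlaps Crybg2 on the other strand, which was at 0.27 CPM or less in rods of each library.

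Hcls1, like Cd52, is best known from blood cells. Microglia held 183, 218 and 180 CPM in the 3 libraries that had them. Cones held 12.5, 9.80, 17.1 and 17.2 CPM, a ratio of 1.00 over rolipram (0.60 to 1.69), and bipolar cells 0.93, 0.79, 2.38 and 2.78 CPM, a ratio of 1.17 (0.63 to 2.17). In these classes both drug libraries lay above the bleached vehicle library. Müller glia had 11, 15, 11 and 13 UMIs, a ratio of 2.03 over rolipram that counting error leaves between 0.839 and 5.004. Hcls1 lies on the plus strand of chromosome 16, at 36934983 to 36963212. Golgb1, beside it, had a ratio of 1.22 in rods (1.11 to 1.36). Of 18 other leukocyte surface and signalling genes only Lyn, a Src-family kinase, was counted in rods, at 4.03, 5.14, 3.19 and 4.12 CPM, a ratio of 1.29 (0.56 to 3.02). In Müller glia Lyn was again the only one counted, and was at least 2-fold lower, at a log2 ratio of -1.39.

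Dnah7b was present in rods, cones and Müller glia. Cones held 23.9, 26.5, 33.0 and 33.9 CPM, a ratio of 1.02 over rolipram (0.71 to 1.48). Bipolar cells held 6.10, 5.99, 6.94 and 7.13 CPM, a ratio of 1.03 (0.72 to 1.48), and amacrine cells 8.83, 8.01, 9.42 and 8.96 CPM, a ratio of 0.95 (0.66 to 1.38). In these neurons, taken as whole classes, the intervals of the 4 libraries overlapped, and those of the ratios exclude a 2-fold difference from rolipram. Single clusters varied more. Of 10 clusters with at least 20 UMIs, 9 lay above 1, while amacrine cluster 16 stood at 0.38 (0.13 to 0.95), from 7 against 17 UMIs. Split by sex-linked UMIs, the ratio in bipolar cells was 0.68 in male and 1.75 in female cells, on opposite sides of 1. These split ratios have no interval of their own, and a difference between the sexes was not tested. Müller glia held 16.0, 9.73, 20.6 and 25.7 CPM, 1.25-fold over rolipram (0.96 to 1.62). There the bleached vehicle library was the low one. Dnah7b lies on the plus strand of chromosome 1, at 46066315 to 46373546. Its near-identical relatives Dnah7a and Dnah7c, which could share reads with it, had 18 and 3 UMIs in rods over both drug libraries. Of 4 genes counted in rods among 18 other axonemal dyneins, 0 were 2-fold higher or lower. In bipolar cells 7 were counted, with Dnah6 at least 2-fold higher and Dnah17 at least 2-fold lower.

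**Figure D4:**
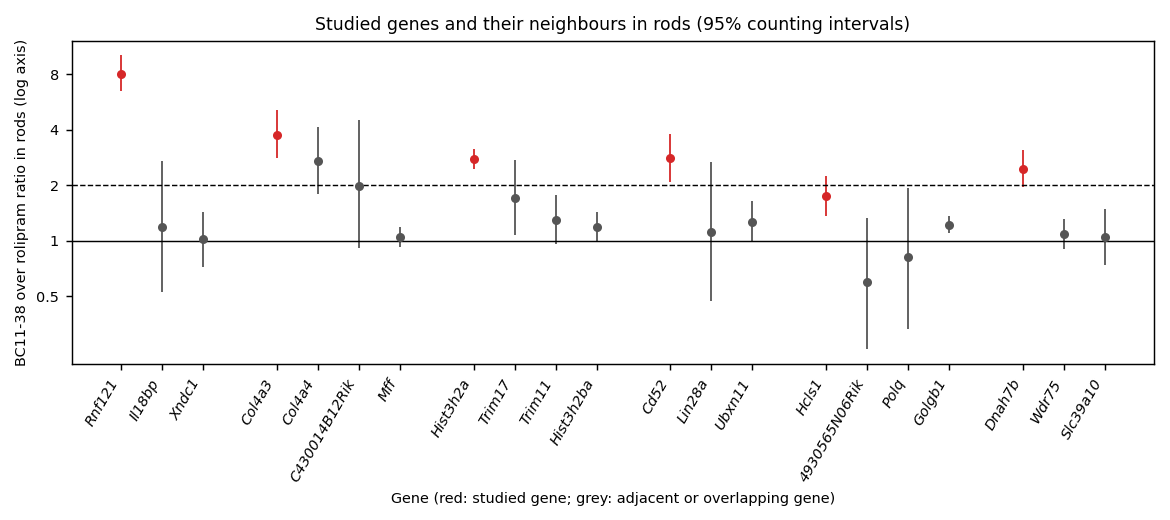
Ratio of BC11-38 to rolipram CPM in rods (y axis, log scale) for the 6 genes (red) and the adjacent or overlapping genes with at least 20 UMIs (grey), with 95% counting intervals, a solid line at 1 and a dashed line at 2. Col4a4, at 2.71, is the grey point above the dashed line.

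Within 2 Mb to either side, Col4a4 was the only gene at least 2-fold higher in rods around any of the 6 members. There were 5 counted genes around Col4a3, 41 around Hist3h2a, 47 around Cd52, 25 around Hcls1 and 7 around Dnah7b. In rods 1 gene around Hist3h2a and 1 around Cd52 were at least 2-fold lower. Of all genes in rods, 0.356% were that much higher and 0.712% lower. In Müller glia 1 of 7 around Col4a3, Dner, was higher and 3 of 28 around Hcls1 were lower, beside 0.596% higher and 1.39% lower of all genes. In bipolar cells 1 of 27 around Hcls1 was lower. Of 6 counted genes from a list of 9 measured transcripts that often differ between mouse strains, 0 were 2-fold higher and 0 lower in rods, with a median log2 ratio of -0.16. In Müller glia 1 of 9 was at least 2-fold lower, the class I gene H2-T23, at 25.9, 32.9, 27.5 and 9.15 CPM, where 1.39% of all genes were.

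RNA released by broken cells reaches every droplet, so the levels outside rods were set against those of rod markers in the BC11-38 library. The 12 rod markers stood at a median of 3.83% of their rod level in bipolar cells, 2.83% in amacrine cells, 3.67% in Müller glia and 5.92% in cones. The highest single marker stood at 16.0%, 4.27%, 10.8% and 67.2% in the same order. Col4a3 stood at 2.26%, 2.13%, 2.10% and 2.42% of its rod level in the same classes, below the rod marker median in each. Endothelial cells were different, with Col4a3 at 59.1% of its rod level and the rod markers at a median of 2.02%. In the same 4 classes Cd52 stood at 3.69%, 4.05%, 1.54% and 7.90%, on both sides of the rod marker median. The part of released rod RNA in the bipolar ratios of Col4a3 and Cd52 was not tested. Rnf121 stood at 44.6%, 36.9%, 131% and 30.3% of its rod level, and Hist3h2a at 155%, 51.2%, 61.8% and 226%, well above the rod marker median. Hcls1, at 5.80%, 2.91%, 6.69% and 35.7%, was near that median outside cones, and Dnah7b stood at 9.72%, 12.2%, 35.1% and 46.2%. In cones Rnf121, Hcls1 and Dnah7b lay below the highest single rod marker. In bipolar cells, amacrine cells and Müller glia Rnf121 lay above it.

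**Figure D5:**
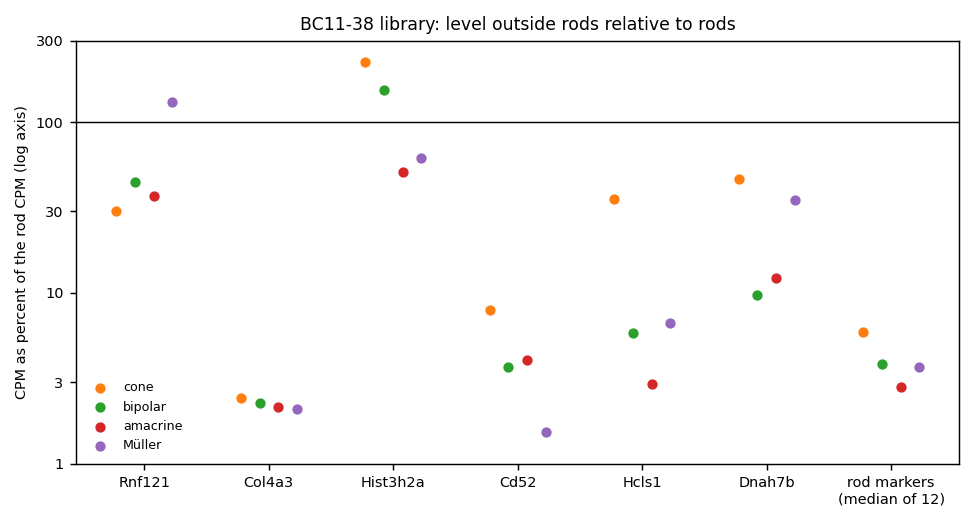
Level in cones, bipolar cells, amacrine cells and Müller glia as a percent of the level in rods (y axis, log scale) in the BC11-38 library, for the 6 genes and the median of 12 rod markers (x axis), with a line at 100. Col4a3 lies near 2% and Cd52 between 1.54% and 7.90%, close to the rod marker median, whereas Rnf121 lies between 30.3% and 131%. Single rod markers are not drawn, and the highest stood at 67.2% in cones.

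RNA of the lens also differed between the libraries. In rods 12 crystallin and lens genes summed to 1.90, 73.2, 5.57 and 516 CPM, and 0.336%, 9.15%, 0.721% and 25.5% of rods held at least 1 such UMI. Among rods with no lens UMI the BC11-38 over rolipram ratio of each of the 6 genes stayed within the interval found in all rods. The lens-led cluster, where lens transcripts are highest, had no Col4a3 UMI in 147 BC11-38 cells, 150 rolipram cells or 53 bleached vehicle cells. In the unbleached library Col4a3 stood there at 18.6% of its rod level. The part of lens RNA in the Col4a3 level of rods was not tested. The 6 pigment epithelium markers summed to 3.32, 5.65, 5.04 and 10.2 CPM in rods, and their part in the Col4a3 level was not tested. Median UMIs per rod were 1489, 1350.5, 1214 and 1395.5 and median mitochondrial shares 2.00%, 1.62%, 2.48% and 2.28%, with BC11-38 between the other libraries in both.

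The libraries differed in sex, since Xist was seen in 48.1%, 0.176%, 51.6% and 48.8% of cells. Within the BC11-38 library, the level was therefore compared between female cells, with Xist but without Y-linked UMIs, and male cells, with the reverse. Rnf121 stood at 204 and 193 CPM in these 2 sets of rods, at 260 and 293 CPM in Müller glia and at 87.7 and 88.5 CPM in bipolar cells. In the rolipram library the same sets of rods held 27.5 and 26.0 CPM. The high Rnf121 level was thus present in cells of both sexes. In the same order, BC11-38 rods held 68.4 and 51.9 CPM of Col4a3, 241 and 310.5 CPM of Hist3h2a, 54.5 and 43.8 CPM of Cd52, 46.9 and 37.7 CPM of Hcls1 and 74.1 and 71.3 CPM of Dnah7b. Rolipram rods held 19.6 and 15.4 CPM of Col4a3, 107 and 103 CPM of Hist3h2a, 17.0 and 24.9 CPM of Cd52, 26.8 and 32.0 CPM of Hcls1 and 25.5 and 34.3 CPM of Dnah7b. In male rods the ratio over rolipram was 1.76 for Cd52 and 1.18 for Hcls1, below the interval found in all rods. No interval was computed for the ratios in male rods alone, which rest on fewer UMIs, and a difference between the sexes was not tested.

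Rods of both drug libraries fell mainly into clusters 1 and 12, the first with fewer UMIs per cell (median 957) than the second (1805). Rnf121 was 8.43-fold higher in BC11-38 than in rolipram rods of cluster 1 and 8.88-fold in cluster 12. Dnah7b was 3.69-fold higher in cluster 1 (2.54 to 5.45) and 1.85-fold in cluster 12 (1.34 to 2.61), and Hcls1 2.44-fold (1.61 to 3.76) and 1.15-fold (0.82 to 1.63). Hist3h2a went the other way, 2.10-fold in cluster 1 (1.71 to 2.60) and 3.36-fold in cluster 12 (2.79 to 4.08). Col4a3 and Cd52 were 4.31-fold and 2.88-fold higher in cluster 1 and 2.79-fold and 2.07-fold in cluster 12.

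Patterns over the 28 units of 7 classes in 4 libraries were compared by Pearson's r of log2(CPM + 1), which describes mainly differences between classes, since units of 1 class share cell type and units of 1 library share preparation. The highest values were r = 0.59 for Rnf121 with Dvl2, 0.91 for Col4a3 with Col4a3bp, 0.91 for Hist3h2a with Kcnab2, 0.88 for Cd52 with Cntln, 0.92 for Hcls1 with Fam53b and 0.94 for Dnah7b with Ralgps2, among 15465 genes. No gene followed Rnf121 as closely as the closest genes followed the other 5. Among the members themselves r reached 0.76 for Cd52 with Hcls1 and was 0.12 for Rnf121 with Col4a3.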

How the data were processed

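Retinal single-cell RNA-seq was deposited as 1 table of natural log values (the natural log of 1 plus UMIs per 10000 of a cell), per the file headers, with 20094 genes in 26543 cells of 4 libraries. Cell Ranger 6.0.1, Seurat 3.2.2 and mm10 are named without roles, per the submitters' processing notes. Other steps, and whether counting used strand, were not given in the sources used here. From the authors' values came whole UMI counts, since 100.0% of back-transformed values lay within 0.001 of a whole multiple of the cell's smallest value.

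Cells were clustered with scanpy 1.11.5 (2000 variable genes without the members and sex-linked genes, 30 components, 15 neighbours, Leiden resolution 1) and named when at least 3 markers were detected. Scrublet called 1, 2, 18 and 0 cells as doublets against 4.56% to 6.32% expected, so it did not work and most doublets remain. Classes with at least 50 cells in each library were compared by summed UMIs. Ratios carry conditional exact 95% intervals. Members and genes of the lists needed 20 UMIs, and the genes of the all-gene shares and medians 100. Fold calls were tried on simulated counts that held counting error only. These cannot show how the calls behave when mice or library preparations differ.

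The members and lists were chosen with earlier results of these data known. Other named genes are the nearest neighbours, the 3 most alike by r, genes 2-fold higher in every class, and list genes past 2-fold. Genes such as Mff, Golgb1 and Hist3h2ba were added as adjacent loci. Promoters came from RefSeq for 4 of 6 members by symbol. Settings tried were another scaling, cell weights, doublet removal, resolution, sex-linked subsets and count minimums.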

Additional observations from a re-analysis of the deposited data

How the results depend on the processing

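Under 10 settings the BC11-38 over rolipram ratio in rods stayed above 1 for each of the 6 genes, and at 2-fold or more in all 10 for Rnf121 (7.43 to 8.88), Col4a3 (2.79 to 4.31) and Hist3h2a (2.10 to 3.36). Of 60 such ratios, 48 stayed within the counting interval of the main value. Since the same contrast chose the genes, these rod ratios describe the choice and support nothing. Outside rods, 156 of 164 ratios stayed within that interval, 7 left it and 1 reversed its direction. No paired analysis was possible because each group is 1 library, and for the same reason no library could be left out. In rods, male cells, with Y-linked but no Xist UMIs, gave 1.76 for Cd52 and 1.18 for Hcls1. Female cells, with the reverse, gave 2.27 for Hist3h2a in rods. Settings chosen after seeing the data gave 3.23 for Hist3h2a in rods with at least 1500 UMIs. Rods of cluster 1 gave 2.10 for Hist3h2a, 2.44 for Hcls1 and 3.69 for Dnah7b, and rods of cluster 12 gave 2.79 for Col4a3, 3.36 for Hist3h2a, 2.07 for Cd52, 1.15 for Hcls1 and 1.85 for Dnah7b. The number of classes at 2-fold stayed within 1.5 times for Rnf121, Hist3h2a and Dnah7b. For Col4a3 it went from 1 to 3 with a minimum of 5 UMIs. For Cd52 it went from 2 to 1 without the highest doublet scores, in female cells, with a minimum of 100 UMIs, without lens UMIs and with at least 1500 UMIs per cell, and to 0 in male cells. Under each of these settings Cd52 in bipolar cells fell below the minimum of UMIs, so that class was no longer counted. For Hcls1 it went from 1 to 0 without the highest doublet scores, in either sex-linked set and with a minimum of 100 UMIs. Hist3h2a in bipolar cells turned from 1.11 to 0.97 in female cells. The 29 genes higher in rods became 8 in male cells, 19 in female cells, 123 with a minimum of 20 UMIs, 1550 with at least 1 UMI, 18 without lens UMIs and 14 in cluster 12. The 58 lower genes became 20, 18, 331 and 2865 under the first 4 of these, 29 with at least 1500 UMIs per cell, 23 in cluster 1 and 15 in cluster 12. Counts of genes rest on depth, since with few UMIs counting noise alone passes 2-fold. The cause of the other shifts was not tested.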

Other observations

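In rods, Il18, which encodes the cytokine interleukin 18, stood at 2.13, 1.80, 1.86 and 25.3 CPM in the libraries from unbleached vehicle to bleached vehicle, rolipram and BC11-38. It was 1 of the 24 genes at least 2-fold above each of the other 3 libraries there. Glb1l3, a beta-galactosidase family gene, stood at 8.30, 1.54, 7.17 and 38.7 CPM in the same order. Both genes were singled out after their values were seen.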
